A study of Homo sapiens with 4 samples.

Results

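The genes described here are 10 genes that encode alternative forms (isozymes) of 5 glycolytic enzymes: HK1 and HK2 for hexokinase, PFKL, PFKM and PFKP for phosphofructokinase, ALDOA and ALDOC for aldolase, PKM for pyruvate kinase, and LDHA and LDHB for lactate dehydrogenase. They were taken by their Ensembl gene identifiers from tables that hold 35189 gene identifiers, and all 10 were found. Ribosome profiling, which sequences the stretches of messenger RNA that ribosomes protect from RNase I, was done in 4 samples of 2 human lines, 2 of K562 and 2 of HepG2. K562 is a line from a chronic myeloid leukaemia with erythroid features, and HepG2 is a line from a liver tumour, so each group stands for 1 tumour line and not for the tissue it came from. Every sample was lysed with cycloheximide (CHX), which halts elongating ribosomes, and ribosomal RNA was removed with RiboZero. The deposited values are counts of footprint reads that span an exon-exon junction, in 1 table per line that both samples of the line share, so no spread between samples could be computed and no p-value is given.

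Glycolysis splits glucose into pyruvate in the cytosol. Hexokinase traps glucose in the cell, phosphofructokinase commits the sugar to the pathway, aldolase splits it, pyruvate kinase forms pyruvate, and lactate dehydrogenase interconverts pyruvate and lactate. Most of these steps are encoded by several genes whose products differ in regulation and in the tissues that carry them, and PKM makes its main products by using either of a pair of neighbouring exons.

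PKM exon choice can be read from the sequences themselves, which are shown because exon 9 marks the M1 form, known from muscle and brain, and exon 10 the M2 form, known from dividing cells. Each of the transcripts compared here holds 11 exons, and numbering both exons of the pair in turn makes the last exon 12. The first exons of these transcripts also differ in where they end. Exon 9 lies at chr15:72203022-72203188 and exon 10 at chr15:72202454-72202620 (GRCh38, minus strand, GENCODE 29), both coding. The exons are 167 bases each and differ at 62 positions (62.9% identity). In the sequences below, 5′ to 3′, capitals mark the positions at which the exons differ.
PKM exon 9: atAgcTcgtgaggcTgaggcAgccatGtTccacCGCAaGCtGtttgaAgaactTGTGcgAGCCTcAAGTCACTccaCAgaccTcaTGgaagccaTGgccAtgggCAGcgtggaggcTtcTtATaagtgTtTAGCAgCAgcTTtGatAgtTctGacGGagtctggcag
PKM exon 10: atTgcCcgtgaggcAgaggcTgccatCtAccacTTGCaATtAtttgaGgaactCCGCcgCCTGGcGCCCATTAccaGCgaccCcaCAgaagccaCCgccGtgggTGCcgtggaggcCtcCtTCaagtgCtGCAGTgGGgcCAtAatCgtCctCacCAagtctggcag
The junctions are shown as the 15 bases on each side, with the bases of exon 9 or exon 10 in capitals.
PKM exon 8 to exon 9: cgcatgcagcacctgATAGCTCGTGAGGCT
PKM exon 8 to exon 10: cgcatgcagcacctgATTGCCCGTGAGGCA
PKM exon 9 to exon 11: GACGGAGTCTGGCAGgtctgctcaccaggt
PKM exon 10 to exon 11: CACCAAGTCTGGCAGgtctgctcaccaggt
The 30-base window from exon 10 to exon 11 also occurs without a mismatch in PKMP1, a processed pseudogene (an intronless genomic copy of a spliced transcript).

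The tables were large relative to these genes. K562 had 10118105 junction reads, of which 7487508 (74.0%) mapped to 1 place and are called unique here, and HepG2 had 12001095, of which 9927809 (82.7%) were unique. Markers matched the labels: of 8 erythroid genes, 7 were higher in K562 (EPOR, with 27 and 17 reads, was not), and 8 of 8 hepatocyte genes were higher in HepG2, with 1005 to 371360 reads against 0 to 162. Among 6 markers of fibroblasts and T cells, the counts in K562 were 210 for COL1A2, 33 for COL1A1 and 4 for COL3A1. They were 196 for CD3D, 11 for CD3E and 0 for CD2. The counts of these markers in HepG2 were 0 to 2. The part of such transcripts in the results was not tested. In these pooled footprints, fewer cells of a type cannot be told apart from less RNA per cell, nor less messenger RNA from fewer ribosomes on each message.

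Line differences were judged on the ratio of unique reads per gene, at depths scaled by the trimmed mean of M-values (TMM). The call required all of the ratio's exact 95% interval to be beyond 2-fold. Of 10956 genes with 20 or more reads, 4238 (38.7%) were counted, 1836 (16.8%) as higher in K562 and 2402 (21.9%) as higher in HepG2. All 10 isozyme genes had 20 or more reads. HK1, PFKM, PFKP and LDHB were higher in K562 (4 of 10, against 16.8% of all genes), LDHA was higher in HepG2 (1 of 10, against 21.9%), and HK2, PFKL, ALDOA, ALDOC and PKM passed neither limit. The LDHA call was lost with scaling by total reads, where its log2 ratio was -0.85. The median log2 ratio of K562 to HepG2 was -0.68 over the 10 genes and -0.01 over all genes tested. These intervals cover counting error only, and no difference has a replicate check.

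**Figure D1:**
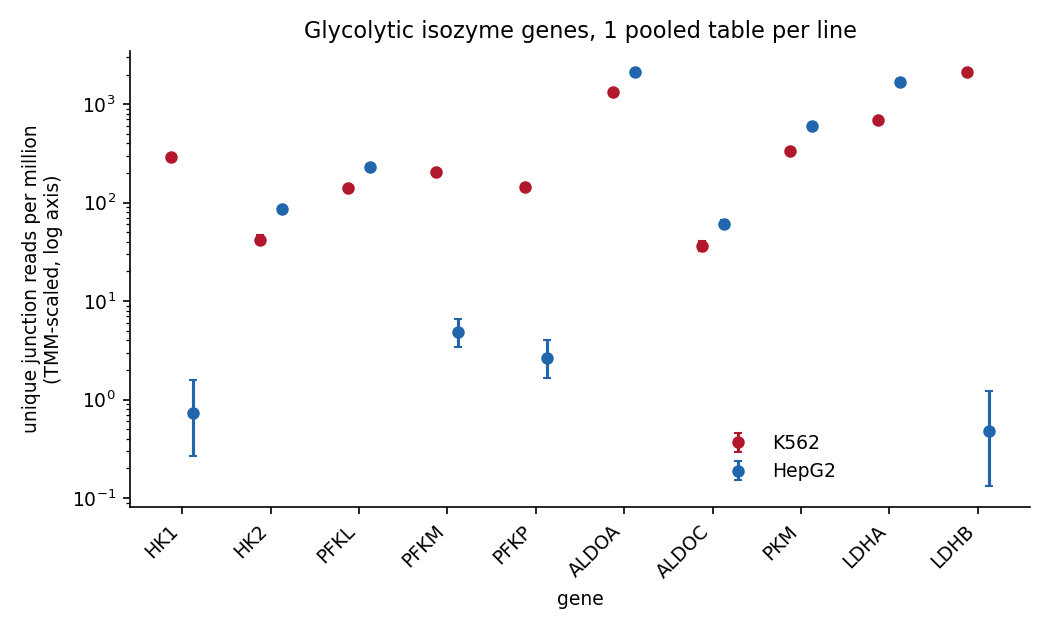
Unique junction reads of each isozyme gene in CPM (log axis, library sizes scaled by TMM) in K562 (red) and HepG2 (blue), 1 pooled table per line, with bars for the exact 95% counting interval. HK1, PFKM, PFKP and LDHB lie between 0.482 and 4.82 CPM in HepG2, while the other 6 genes are higher in HepG2 by 1.59 to 2.41 times.

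Hexokinase catalyses the first step. HK1 (chr10:69269984-69401884, plus strand), the widely expressed form that binds mitochondria, had 2419 unique reads in K562 against 6 in HepG2, or 401 times more (95% interval 184 to 1095). HK2 (chr2:74833981-74893359, plus strand), the form known from insulin-sensitive tissues and many tumours, had 352 reads in K562 and 716 in HepG2. It was 2.04 times higher in HepG2 (1.80 to 2.33), an interval that spans 2-fold, so it was not counted. The lines thus read different hexokinase genes, with HK1 at 6 reads in HepG2 and both genes read in K562.

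To compare paralogs with each other, levels were taken as the mean number of unique reads per coding junction of 1 reference transcript. Each junction offers the same number of footprint positions, but at some of them few or no reads can be placed uniquely. Such junctions were kept in the mean and lower the level of their gene. Of the 17 coding junctions, 4 of HK2 and 0 of HK1 had no unique read in either line. Over 17 coding junctions, HK1 averaged 139 reads per junction in K562 and 0.353 in HepG2, and HK2 averaged 20.4 and 42.0. HK1 therefore held 87.2% of the pair's level in K562 (exact binomial 95% interval 85.9 to 88.5) and 0.833% in HepG2 (0.306 to 1.80). Shares were counted as different when they lay 20 or more percentage points apart with intervals that did not overlap, and these were counted. HK1 and HK2 are spliced alike: all 17 junctions lie at the same coding position in both genes. HK1 had more reads than HK2 at 17 of the 17 in K562. In HepG2, HK2 had more unique reads at 13 of the 17 and HK1 at 2, and with all mapped reads HK2 had more at 17.

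Reads of HK2 were harder to place than those of HK1. Of the HK2 junction reads over both tables, 57.8% were unique, against 95.9% for HK1, and 8 of the 17 HK2 junction windows occur exactly in the processed pseudogene HK2P1. With all mapped reads, the HK1 share in K562 was 79.5%. How alike the profiles of HK1 and HK2 were along the gene depended on the reads: Spearman's rho over the 17 junctions in K562 was 0.46 with unique reads and 0.78 with all mapped reads. For HK2 between the lines it was 0.92 and 0.89. These are descriptions over junctions that share position, library and much of their sequence. The junction from exon 9 to exon 10 was low in both genes, with 17 reads of HK1 in K562 and 4 of HK2, all mapped reads counted.

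HK1 also has alternative first exons, whose junctions are shown because they separate the form of red cells from the common form. The first exon of the erythroid (R) transcript, NM_033496, carries 60 coding bases, and that of the somatic transcript, NM_000188, carries 63 and encodes the mitochondrial binding segment that the erythroid form lacks. In both windows, 5′ to 3′, capitals are the last 15 bases of the first exon, and the rest is the shared second coding exon. Their introns lie at chr10:69316015-69343826 and chr10:69319011-69343826 (GRCh38, plus strand).
HK1 erythroid first exon: GCCTGGGAGATTGGGattgacaagtatctc
HK1 somatic first exon: GACCAGGTCAAAAAGattgacaagtatctc
In K562, 56 of the 101 unique reads into the shared exon came from the erythroid first exon (55.4%, 45.2 to 65.3) and 43 from the somatic one (42.6%, 32.8 to 52.8). The intervals overlap, so the counts do not set which was the more used. HepG2 had 1 read into this exon, from the somatic first exon, and gives no share to compare.

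Phosphofructokinase is a tetramer of subunits that are named after liver (PFKL), muscle (PFKM) and platelet (PFKP). PFKL (chr21:44300051-44327376, plus strand) had 1179 unique reads in K562 and 1911 in HepG2, 1.63 times more in HepG2 (1.51 to 1.75). PFKM (chr12:48105139-48146404, plus strand) had 1719 and 40, or 42.8 times more in K562 (31.3 to 60.1). PFKP (chr10:3066333-3137712, plus strand) had 1207 and 22, or 54.6 times more in K562 (35.9 to 87.5). K562 thus read all 3 subunit genes, and in HepG2 the muscle and platelet genes were read at a small part of the liver gene.

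Per coding junction, the means of the 3 subunit genes were close to each other in K562, at 56.1 reads for PFKL, 59.1 for PFKM and 60.4 for PFKP. In HepG2 the means were 90.9, 1.90 and 1.10. The PFKL share of the family was 31.9% in K562 (30.4 to 33.5) and 96.8% in HepG2 (95.9 to 97.5). PFKM held 33.7% (32.2 to 35.2) and 2.03% (1.45 to 2.75), and PFKP held 34.4% (32.8 to 36.0) and 1.17% (0.736 to 1.77). All 3 shares were counted as different between the lines. Within K562 the intervals of all 3 overlap, so their order is not set by these counts. Equal shares there depend on taking means. With medians per coding junction the K562 shares were 41.1% for PFKL, 29.1% for PFKM and 29.8% for PFKP. Summing all junctions in place of averaging coding ones raises PFKM in K562 to 41.9%, since a junction in its 5′ untranslated region (UTR) holds 452 of its 1719 reads (26.3%) in K562 and 0 in HepG2.

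**Figure D2:**
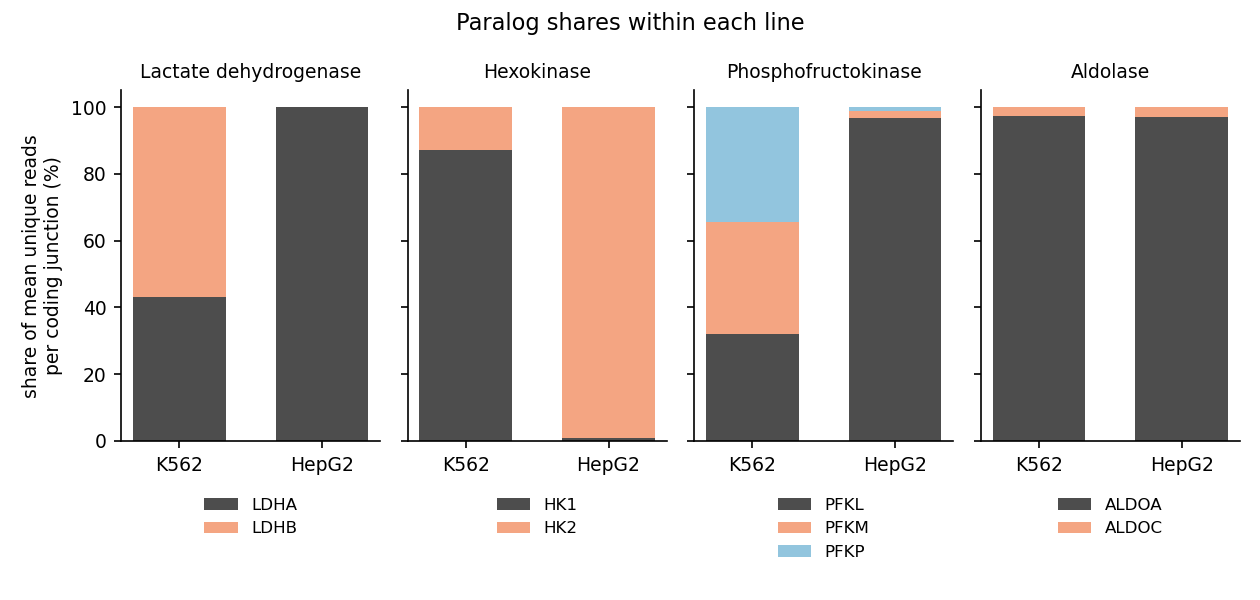
Share of each plotted paralog in the mean unique reads per coding junction, summed over the plotted genes of its enzyme (%), for lactate dehydrogenase, hexokinase, phosphofructokinase and aldolase in K562 and HepG2. In HepG2, 1 of the plotted genes holds 96.8% or more in each panel, and in K562 this is so for aldolase alone; HKDC1, a further hexokinase, is not plotted.

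Junction by junction, PFKL had more unique reads than PFKM at 21 of 21 paired junctions in HepG2, but at 9 of 21 in K562, where PFKM had more at 11. Against PFKP, PFKL had more at 20 of 20 in HepG2 and at 11 of 20 in K562. PFKP has 20 junctions here because 1 more is assigned to more than 1 gene in the tables and was left out. Between the profiles of the subunit genes in K562, Spearman's rho with unique reads was 0.23 for PFKL with PFKM (21 junctions), 0.29 for PFKL with PFKP (20) and 0.07 for PFKM with PFKP (20). PFKL in K562 against PFKL in HepG2 gave 0.76 over 21. These rhos are descriptions, and differences between them were not tested. The 19th coding junction was low in all 3 genes, with 9 unique reads of PFKL, 9 of PFKM and 6 of PFKP in K562 and 10 of PFKL in HepG2. Other low points in K562 were not shared. PFKL had 1 read at the 12th junction and 8 at the 14th, and PFKP had 7 at the 3rd.

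**Figure D3:**
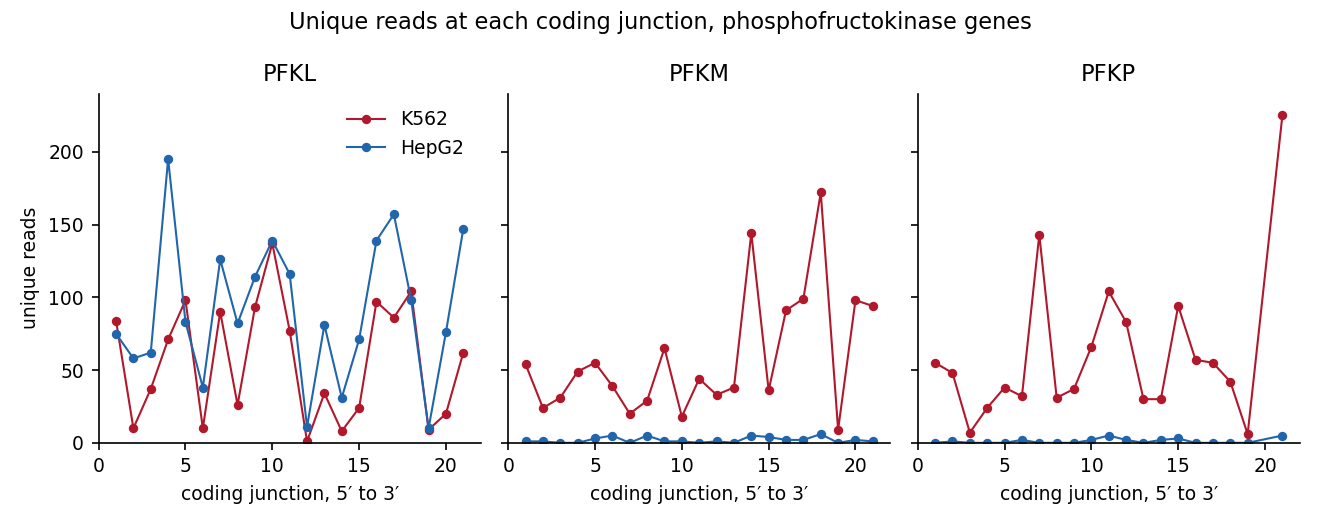
Unique reads (linear axis) at each coding junction of PFKL, PFKM and PFKP, numbered 5′ to 3′, in K562 (red) and HepG2 (blue). PFKM and PFKP stay at or below 6 reads at each HepG2 junction, the 19th junction is low in all 3 genes, and PFKP has no point at junction 20.

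Of the 4 enzymes with several genes here, aldolase differed least in make-up. ALDOA (chr16:30064164-30070457, plus strand), the form of muscle and of most dividing cells, had 11109 unique reads in K562 and 17545 in HepG2, 1.59 times more in HepG2 (1.55 to 1.63). ALDOC (chr17:28573115-28577264, minus strand), the form known from brain, had 303 and 508, 1.68 times more in HepG2 (1.46 to 1.95). ALDOC held 2.54% of the pair in K562 (2.23 to 2.87) and 2.95% in HepG2 (2.69 to 3.22), with overlapping intervals. With all mapped reads the order turned, to 3.30% in K562 and 2.72% in HepG2, so no direction is given. The ALDOC reads that map to more than 1 place lay mostly at the junction from exon 5 to exon 6, with 2 unique of 155 mapped reads in K562 and 5 of 83 in HepG2. The pair shares the coding position of 7 of 7 junctions.

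ALDOA also used its 5′ UTR exons in different proportions. Of the unique reads into the exon that starts after chr16:30067233, 1265 of 1760 (71.9%, 69.7 to 74.0) came from the donor at 30064506 in K562 and 1715 of 1949 (88.0%, 86.5 to 89.4) in HepG2. A second donor, at 30065928, gave 488 (27.7%, 25.6 to 29.9) and 210 (10.8%, 9.43 to 12.2). The intervals do not overlap, but the differences of -16.1 and 17.0 percentage points are under the 20 required, so neither was counted. Over the 10 genes, 30 junctions in 5 genes could be compared in this way, and 0 were counted, against 943 of 20029 (4.71%) over all genes.

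PKM (chr15:72199029-72231822, minus strand) had 2757 unique reads in K562 and 5028 in HepG2, 1.83 times more in HepG2 (1.75 to 1.92). Of its 7 coding junctions that do not touch exon 9 or exon 10, 6 were higher in HepG2 at scaled depth, with 145 to 588 reads in K562 and 413 to 917 in HepG2, and the last had 503 and 487. PKLR, which encodes the pyruvate kinase of liver and red cells, had 35 and 242 reads. Per coding junction PKM averaged 324 and 619 and PKLR 3.40 and 24.2, so that PKLR was 1.04% of the pair in K562 and 3.76% in HepG2.

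Both lines read exon 10 far more than exon 9. From exon 8, K562 had 344 reads into exon 10 and 22 into exon 9, and HepG2 had 557 and 4, all of them unique. The exon 10 share was therefore 94.0% in K562 (91.0 to 96.2) and 99.3% in HepG2 (98.2 to 99.8), which leaves exon 9 at 6.01% (3.80 to 8.96) and 0.713% (0.195 to 1.82). The other side of the exons gave fewer usable reads. From exon 9 to exon 11 there were 29 unique reads in K562 and 13 in HepG2 (41 and 26 with all mapped reads), while from exon 10 to exon 11 there were 0 unique reads in either line and 371 and 505 mapped ones. This is the junction whose window is also in PKMP1.

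The exon 10 share over both sides thus depended on which reads were used. With unique reads it was 87.1% in K562 (83.4 to 90.2) and 97.0% in HepG2 (95.3 to 98.3), where the 0 unique reads out of exon 10 lower it. With all mapped reads it was 91.9% (715 of 778) and 97.3% (1062 of 1092). The difference of K562 from HepG2 was -9.95 and -5.35 percentage points in these readings and -5.30 from exon 8 alone. The intervals did not overlap in any of the 3, but each difference was under 20 points and none was counted.

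**Figure D4:**
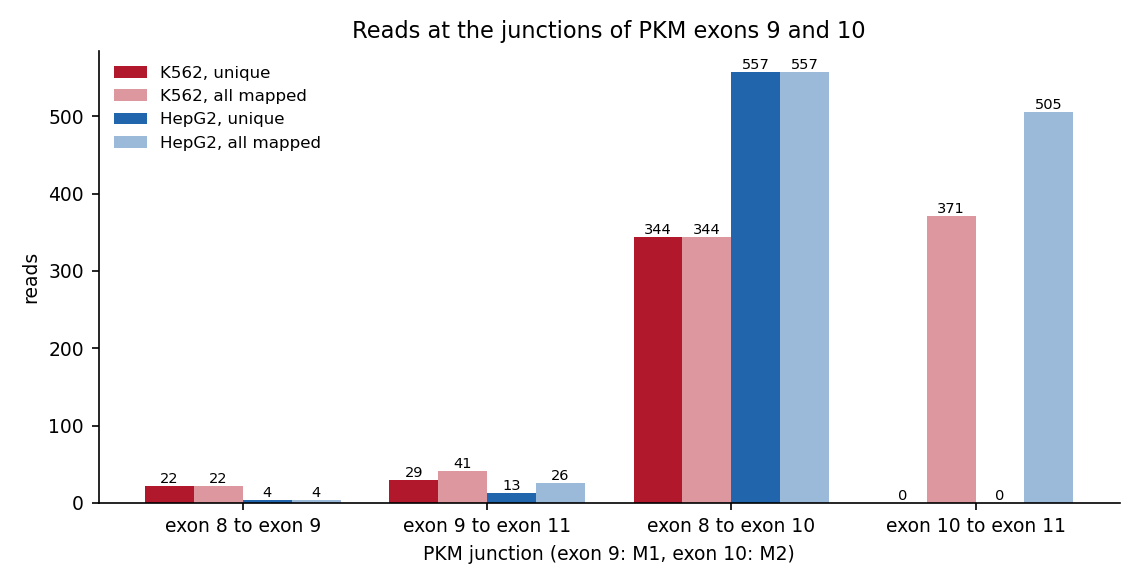
Reads at the junctions of PKM exon 9 (M1) and exon 10 (M2) in K562 (red) and HepG2 (blue), with unique reads in dark and all mapped reads in pale bars. The junction from exon 8 to exon 10 has 344 and 557 reads by either count, and that from exon 10 to exon 11 has 0 unique reads in both lines.

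Of 6 factors reported to act on this choice of exon, 1 was higher in K562 (against 16.8% of all genes) and 0 were higher in HepG2 (against 21.9%). Their median log2 ratio was 0.24. SRSF3, a serine and arginine-rich splicing factor, had 8714 unique reads in K562 against 3805 in HepG2, or 2.28 times more (2.19 to 2.37). PTBP1, which represses exon 9, had 7977 and 7077 (1.12), and HNRNPA2B1, which acts with it, 52532 and 41773 (1.25). For HNRNPA1 only 175 and 176 of 29602 and 18486 mapped reads were unique, so its ratio rests on few of its reads. RBM4 had 79 and 42 and NEK2 had 418 and 414 reads. Any link between these levels and exon use was not tested.

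Lactate dehydrogenase forms tetramers from the subunits of both genes. LDHB (chr12:21635342-21757857, minus strand), the heart-type subunit, had 17589 unique reads in K562 against 4 in HepG2, or 4377 times more (1709 to 16066). LDHA (chr11:18394388-18408425, plus strand), the muscle-type subunit that favours lactate formation, had 5796 and 13912, 2.41 times more in HepG2 (2.34 to 2.49). K562 thus read both subunit genes, and HepG2 read LDHA almost alone. Over 6 coding junctions, LDHB averaged 1168 reads per junction in K562 and 0.500 in HepG2, and LDHA averaged 881 and 2099. The LDHB share was 57.0% in K562 (56.1 to 57.9) and 0.0238% in HepG2 (0.00491 to 0.0696; 3 of 12598 reads), a difference that was counted.

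Which of the pair was the larger in K562 depended on the reads used. LDHB held 57.0% with unique reads, 44.1% with all mapped reads and 35.9% when all mapped reads were taken only at junctions whose window has no exact copy in another gene. LDHB had more unique reads than LDHA at 4 of 6 paired junctions in K562 and more mapped reads at 3 of 6. In HepG2, LDHA had more at 6 of 6 by either count. The lines were counted as different in each of these readings.

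Few LDHA reads were unique at some junctions, so 3 of its 6 windows are printed, the pair with almost no unique read and the most-read one, 5′ to 3′, with the downstream exon in capitals.
LDHA exon 3 to exon 4: ttgtctctggcaaagACTATAATGTAACTG
LDHA exon 4 to exon 5: ttgtttcaaatccagTGGATATCTTGACCT
LDHA exon 7 to exon 8: tccaccatgattaagGGTCTTTACGGAATA
Their introns lie at chr11:18399549-18400836, chr11:18401011-18402839 and chr11:18405573-18407116 (GRCh38, plus strand). The first occurs exactly in the LDHA pseudogenes LDHAP1 and LDHAP7, and the second in LDHAP3, LDHAP4 and LDHAP7. The junction from exon 3 to exon 4 had 0 unique of 604 mapped reads in K562; HepG2 had 1 of 1888. The one from exon 4 to exon 5 had 1 of 859 and 1 of 1120. The junction from exon 7 to exon 8 has no exact copy and had 3231 of 4242 and 6498 of 7877. The other 3 LDHA junctions do not follow the copies as closely. In K562, exon 2 to exon 3 and exon 6 to exon 7 have no exact copy but had 643 of 3167 and 458 of 1006 reads unique, while exon 5 to exon 6, with a copy in LDHAP5, had 955 of 1600. Over the isozyme genes' 131 coding junctions, 20.4% of mapped reads were unique at the 13 with an exact copy and 80.4% at the other 118.

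**Figure D5:**
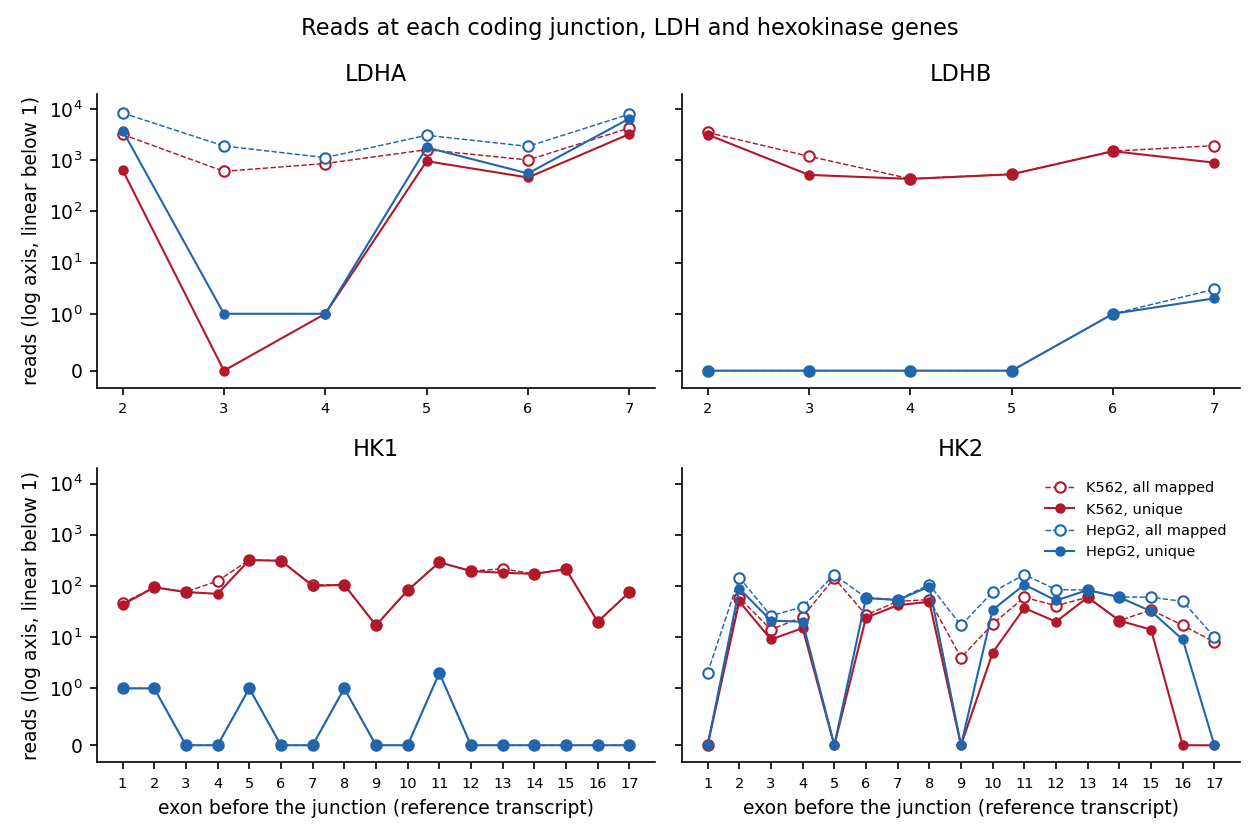
Reads at each coding junction of LDHA, LDHB, HK1 and HK2 (log axis, linear below 1), labelled by the exon before the junction, in K562 (red) and HepG2 (blue); filled points are unique reads and open points all mapped reads. LDHB and HK1 lie at 0 to 3 reads along their whole length in HepG2, and unique reads of LDHA drop to 0 or 1 at the junctions after exons 3 and 4.

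The differences were spread along the genes. Counting coding junctions with 10 or more unique reads over both tables, 17 of 17 of HK1, 20 of 20 of PFKM, 18 of 18 of PFKP and 6 of 6 of LDHB were higher in K562 at scaled depth. On the HepG2 side were 12 of 12 of HK2, 6 of 6 each of ALDOA and ALDOC, 4 of 4 of LDHA and 18 of 21 of PFKL. Some of these lay close to equal. The highest K562 to HepG2 ratio at a junction was 0.789 for HK2, 0.913 for ALDOA, 0.995 for ALDOC and 0.829 for LDHA. The sides were taken at TMM depth only. Scaling by total reads was not run junction by junction. It moves every ratio toward K562 by the same factor, which is enough to put each of the highest ratios just given above 1. At that scaling, not all of these junctions of HK2, ALDOA, ALDOC and LDHA would lie on the HepG2 side. Junctions of 1 gene share their transcripts and are not replicates. The most-read LDHB junction is in the 5′ UTR, 6 bases before the start codon, and held 10576 of the 17589 unique reads in K562 (60.1%) and 1 in HepG2. Without it, LDHB had 7013 and 3 reads.

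Of 39 other genes of the pathway and its transport, 23 had 20 or more reads. Of these, 2 were higher in K562 (against 16.8% of all genes), 10 in HepG2 (against 21.9%) and 11 past neither limit. Their median log2 ratio was -0.90, against -0.01 over all genes tested. Higher in K562 were PFKFB3, which makes the phosphofructokinase activator fructose 2,6-bisphosphate, with 126 and 37 reads (3.39 times, 2.33 to 5.03), and BPGM, which makes the haemoglobin ligand 2,3-bisphosphoglycerate, with 50 and 10 (4.98 times, with a lower limit of 2.49). Among the 10 higher in HepG2 were the glucose transporters SLC2A1 (1795 reads in K562 and 4224 in HepG2) and SLC2A2 (0 and 1201). The lactate exporter SLC16A3 (1 and 1036) was also among them. These calls are at TMM depth. SLC2A1 was 2.36 times higher in HepG2 (2.24 to 2.50), close to LDHA, whose call was lost with scaling by total reads. TIGAR, a phosphatase that lowers fructose 2,6-bisphosphate, had 71 and 489 reads.

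HKDC1, a further hexokinase, had 1 read in K562 and 299 in HepG2. Per coding junction it averaged 17.6 unique reads in HepG2, 29.3% of the hexokinase level there, beside 70.1% for HK2. With all mapped reads, which HK2 gains more from, these shares were 20.3% and 79.3%. Among the enolases, ENO1 held 99.6% in K562 and 96.3% in HepG2, and the minor genes ENO2 (40 and 335 reads) and ENO3 (63 and 538) were higher in HepG2. At TMM depth, the steps with 1 main gene were past neither limit. GPI had 5960 and 7049 unique reads, GAPDH 4644 and 8838, TPI1 996 and 1457, and PGK1 11544 and 6981. PGK1 was 1.65 times higher in K562 (1.60 to 1.70). Scaling by total reads moves ratios toward K562, and calls at that scaling are not given for these genes. Of the mapped reads of GAPDH, only 16.4% were unique in K562 and 17.5% in HepG2. For TPI1 these were 14.3% and 14.7%, so both ratios rest on a small part of the reads. PGAM1, phosphoglycerate mutase, had 1 and 2 unique reads of 2017 and 3410 mapped ones and was not tested.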

How the data were processed

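The deposited values are counts of junction-spanning reads per annotated junction, raw per the file headers, with a column of all mapped reads and one of unique reads. The submitters' processing notes name cutadapt, Bowtie2, STAR 2.6.0 and GRCh38 without the role of each; which program counted the junctions, and on which annotation release, is not given in the sources used here. Each table lists 350863 junctions, of which 350016 (99.76%) matched an annotated intron of GENCODE 29. The 6033 junctions assigned to more than 1 gene were left out of gene sums.

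Unique reads were summed per gene and scaled by TMM factors of 1.156 (K562) and 0.865 (HepG2) from edgeR 4.0.16 in R 4.3.3, used for scaling only. DESeq2 1.42.0 size factors were an alternative. Ratio intervals are exact conditional Clopper-Pearson 95% intervals, and share intervals are exact binomial; both describe counting error alone, as the reads carry no molecular identifiers and may repeat 1 molecule. Nothing in the labels says whether the samples of a line came from separate cultures. The reference transcript was the APPRIS principal one with the longest coding sequence. Windows of 30 bases were searched for exact copies in GENCODE 29 transcripts of genes elsewhere in the genome. RefSeq names are those GENCODE pairs with its transcripts. The isozyme genes and the gene lists were chosen with earlier results of these data known. Named were all 10 isozyme genes, genes of the other lists with 20 or more reads, and genes under that minimum only with their counts; the junctions given for read profiles were chosen after their values were seen. The calculations were tested on simulated data.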

Additional observations from a re-analysis of the deposited data

Results flagged for a closer look

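At 6 coding junctions of the isozyme genes, no unique read was found in either line although reads that also map elsewhere were present. Those of ALDOA and HK2 were kept as 0 in the means of unique reads per coding junction, which lowers these means. The junction of ALDOA from exon 2 to exon 3 had 2035 mapped reads in K562 and 3889 in HepG2, more than most other junctions of that gene. The window there occurs exactly in the pseudogene ALDOAP2. HK2 had 4 such junctions, of which exon 1 to exon 2 had only 0 and 2 mapped reads. Exon 5 to exon 6 had 142 and 166 mapped reads, exon 9 to exon 10 had 4 and 17, and exon 17 to exon 18 had 8 and 10. For PKM, the junction from exon 10 to exon 11 had 371 and 505 mapped reads.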

How the results depend on the processing

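The number of isozyme genes higher in K562 was 4 under each alternative run. The number higher in HepG2 moved from 1 to 0 with scaling by total reads, where LDHA was at a log2 ratio of -0.85, and to 5 with intervals past 1.5-fold, which added HK2, PFKL, ALDOA and PKM (3086 of 10956 genes at that limit, against 2402). Scaling by total reads moved the median log2 ratio of all genes from -0.01 to 0.41 and gave 2653 genes higher in K562 and 1925 in HepG2 (58.0% in K562), against 1836 and 2402. With a limit of 10 percentage points in place of 20, junction choice in the isozyme genes went from 0 to 2 counted junctions, both the ALDOA donors, beside 1408 of 20029 (7.03%) over all genes. The LDHB, HK1 and phosphofructokinase shares were counted as different between the lines under each alternative run; the LDHB share in K562 ranged from 35.9% (all mapped reads at copy-free junctions, an alternative chosen after seeing the data) to 75.2% (summed reads). For PKM, unique reads out of the exon pair alone gave 0 of 29 and 0 of 13 for exon 10, and all mapped reads there gave 90.0% and 95.1%; that last reading was also chosen after seeing the data.

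No paired analysis was possible because each line has 1 pooled table whose columns carry no sample numbers, and no sample was left out in turn for the same reason. Depth limits LDHB, HK1, PFKM and PFKP in HepG2, with 4, 6, 40 and 22 unique reads, so their ratios are known only within wide intervals.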
